A study of Mus musculus with 6 samples.

Results

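The genes described here encode proteins of the contacts of oligodendrocytes with axons and with each other, some of them on the axonal side, and a cytoskeletal protein. They are 8 genes chosen by symbol: neurofascin (Nfasc), contactin 1 (Cntn1), contactin-associated protein 1 (Cntnap1, also called Caspr), contactin 2 (Cntn2), the connexins Gjc3 and Gjb1, junctional adhesion molecule 3 (Jam3) and ermin (Ermn). All 8 were found among the 23038 genes of the deposited files, and 7 of them passed the filter on low counts. They were measured by poly-A RNA-seq in primary mouse oligodendrocyte precursor cells (mOPCs), purified from mid-gestation embryos by immunopanning, in 3 libraries with control siRNA (siNC) and 3 with siRNA against Qk (siQk). Qk encodes the RNA-binding quaking (Qki) proteins, and the labels name 3 different Qk siRNAs without saying which library received which. The labels call the 3 libraries of a group biological replicates. These are bulk libraries of cultured cells without axons, so fewer cells of a type and less RNA per cell cannot be told apart.

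Myelin is attached to the axon at the paranodes, which flank each node of Ranvier. There a glial isoform of neurofascin on the myelin loops faces a complex of contactin 1 and Cntnap1 on the axon, while contactin 2 sits in the neighbouring juxtaparanode on both the axonal and the glial membrane. Oligodendrocytes are coupled to each other and to astrocytes through gap junction channels built of connexins; Gjb1 encodes connexin 32 and Gjc3 connexin 29, the latter of which is found on the innermost myelin layer. Jam3 is an adhesion protein of the immunoglobulin superfamily, and ermin is a cytoskeletal protein of myelinating oligodendrocytes related to the ezrin, radixin and moesin (ERM) proteins.

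Because Qki proteins bind RNA at the letters ACTAAC and at similar sequences such as ACTAAT, the 3′UTRs of the 8 genes were searched for both on the sense strand, taking for each gene its longest 3′UTR in GENCODE M21 (mm10). Gjc3, Ermn and Gjb1 held them and the other 5 genes did not. Gjc3 (2991 nt) and Ermn (2641 nt) each held 1 ACTAAC and 1 ACTAAT, and Gjb1 (610 nt) held 1 ACTAAT. The 3′UTRs without a match were those of Nfasc (5730 nt), Cntn2 (3752 nt), Cntn1 (2378 nt), Cntnap1 (1065 nt) and Jam3 (982 nt). Among 10825 tested genes with an annotated 3′UTR, 36.2% held at least 1 of the motifs, from 14.1% in the shortest of 3 length classes (median 471 nt) to 69.7% in the longest (median 3615 nt), so a match is common in a long 3′UTR. The 5 matches are shown with up to 10 nt on either side and with the motif in capitals, because they are the places in these transcripts where the letters occur. They describe the sequence only, and binding was not measured.
Gjc3, chr5:137955137-137955162, minus strand: aatttagcaaACTAATagtgactttt
Gjc3, chr5:137953892-137953917, minus strand: gattggcagaACTAACtctcagaagt
Ermn, chr2:58047738-58047753, minus strand, starting directly after the stop codon: ACTAACggggaccgag
Ermn, chr2:58047518-58047543, minus strand: aaaaaagtgaACTAATatagcatcag
Gjb1, chrX:101385322-101385347, plus strand: caattaggaaACTAATcttaaccccc

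Totals were 58166490 to 132085937 tags in the siNC libraries and 82701288 to 141045937 in the siQk libraries. Qk was at 209, 206 and 163 RPKM (tags per kilobase of exon, scaled to the library total) in siNC 1, 2 and 3 and at 51.3, 76.6 and 36.2 RPKM in siQk 1, 2 and 3, a log2 fold change of -1.98 ± 0.28 (SE, n = 3 per group; edgeR quasi-likelihood test, FDR = 0.00311). A call needed an unadjusted P below 0.01 together with an FDR (Benjamini-Hochberg) below 0.1, and 31.0% of the 12505 genes tested passed, 17.2% as lower and 13.8% as higher in siQk. With library size as the only scaling, lower genes made up 31.4% of the calls rather than 55.4%, and the all-gene median of the log2 fold changes was 0.16 rather than 0.010. Of the precursor markers, Sox10 and Pdgfra were present in every library and the summed level of 10 markers was 1044 to 1119 RPKM in siNC and 1241 to 1394 RPKM in siQk. Of these 10, 3 were called higher (Cspg4, Olig1 and Olig2) and 1 lower (Lhfpl3, log2 fold change -1.07). Their median log2 fold change was 0.11. The summed level of 10 myelinating oligodendrocyte markers was 3369 to 5802 RPKM in siNC and 1448 to 2119 RPKM in siQk, and 8 of the 9 tested were called lower (4 without siQk replicate 1 or siQk replicate 2). The part of these lower marker levels in the values below was not tested.

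Of the 8 genes, Cntnap1 rose and Gjc3 fell, and the other 6 were not called. Calls among the 7 tested genes, 28.6%, were close to the share among all genes. The median log2 fold change of the 7 was -0.79, beside 0.010 for all genes tested. Without siNC replicate 2 this median was 0.28, over the 6 genes then tested, so its sign rested on 1 library. The RPKM ranges of the groups were separate for 3 of the 8 genes, Cntn1, Cntnap1 and Gjc3, beside 58.3% of all genes tested. RPKM lack the scaling factors of the fit, and with these applied the groups overlapped for Cntn1. In an exact permutation test of 3 against 3 libraries the smallest possible two-sided p is 0.1, so single-gene calls rest on the edgeR fit across all genes.

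**Figure D1:**
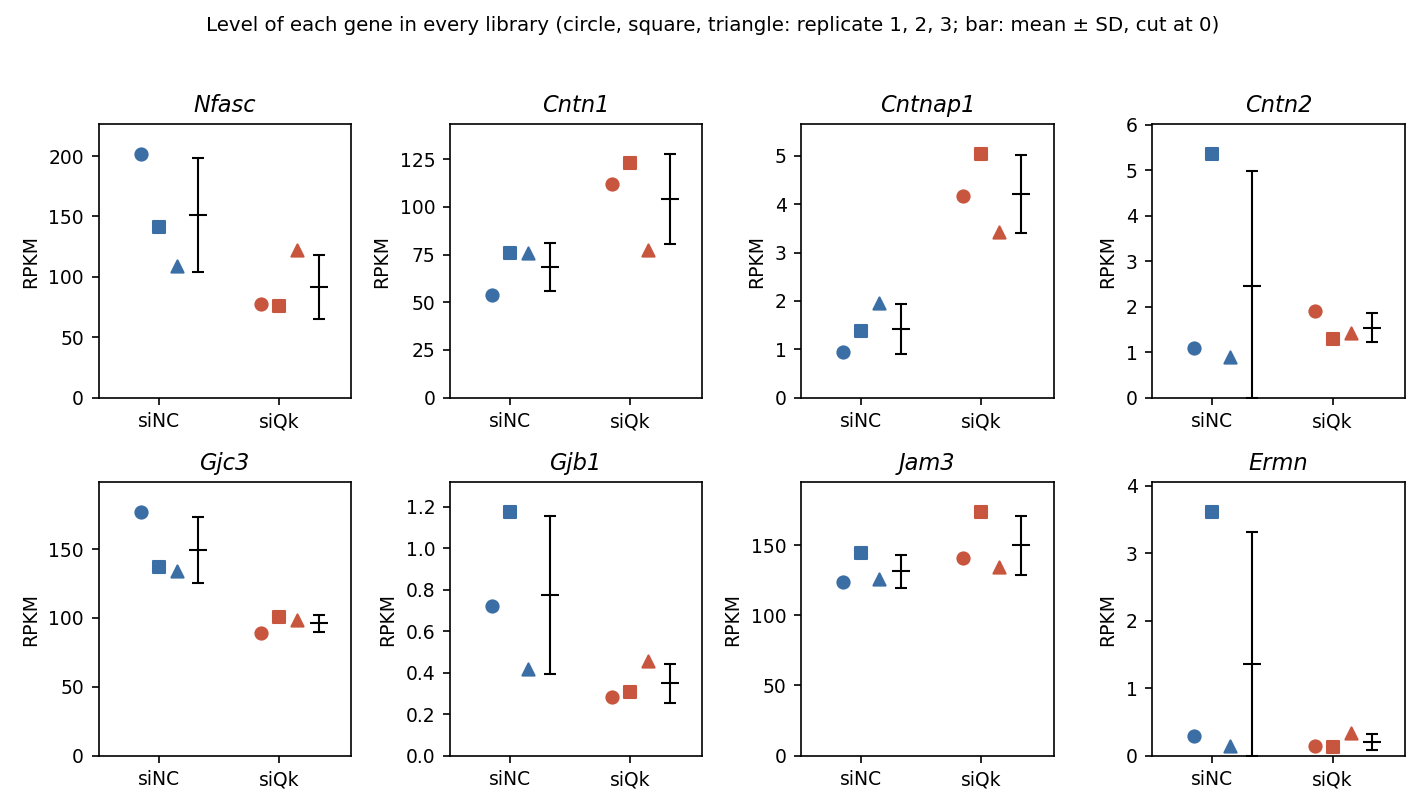
RPKM (y axis, linear, starting at 0) of each of the 8 genes in the 3 siNC (blue) and 3 siQk (red) libraries, 1 panel per gene, with the mean ± SD of each group as a bar. The siNC points of Cntn2 and Ermn split into 1 high library, replicate 2 (5.37 and 3.61 RPKM), and 2 low ones. In RPKM the groups are separate for Cntn1, Cntnap1 and Gjc3, for Cntn1 only narrowly.

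**Figure D2:**
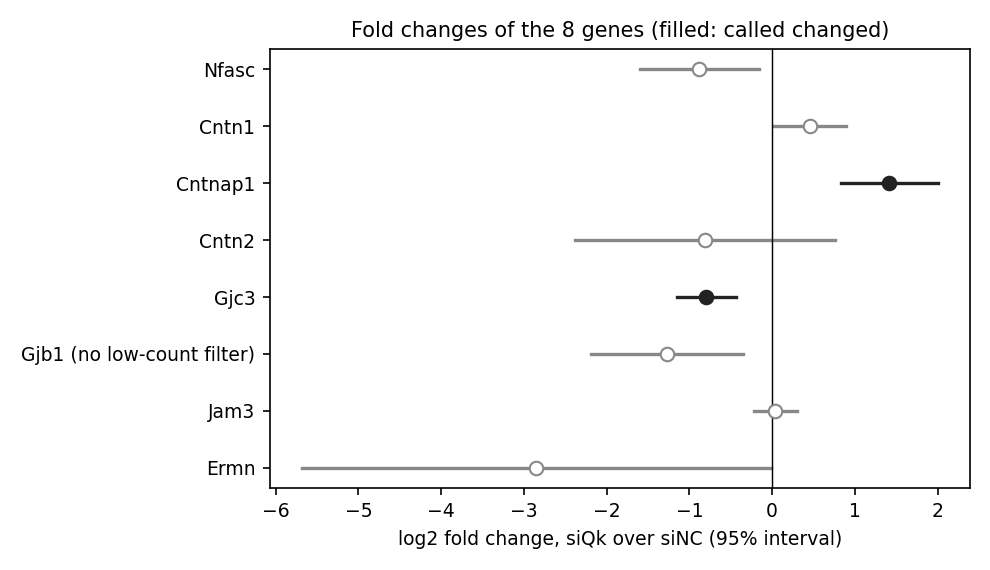
Log2 fold change of siQk over siNC (x axis) with its 95% interval for each of the 8 genes, from the edgeR quasi-likelihood fit, with filled points for the genes called changed. Cntnap1 (1.42) and Gjc3 (-0.79) are filled, and the intervals of Ermn and Cntn2 are the widest of the 8.

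By level, the 8 genes formed 4 abundant and 4 scarce transcripts. In siNC, Nfasc (150.8 ± 47.2 RPKM, SD, n = 3), Gjc3 (149 ± 24.2) and Jam3 (131 ± 11.6) were the highest and their ranges overlapped. Cntn1 followed at 68.5 ± 12.6 RPKM, with no library in the range of Jam3 above it or of Cntn2 below it. Cntn2 (2.45 ± 2.53), Cntnap1 (1.43 ± 0.514), Ermn (1.35 ± 1.96) and Gjb1 (0.773 ± 0.381) were the lowest, and each overlapped with its neighbours. Against all genes tested, 97.4% had a lower siNC mean than Nfasc and 6.72% a lower one than Gjb1. The order differed in siQk, where Jam3 was highest at 149.8 ± 20.96 RPKM and separate from Cntn1 at 104 ± 23.7, while Cntn1, Gjc3 (96.2 ± 6.24) and Nfasc (92.0 ± 26.5) overlapped. Cntnap1 at 4.21 ± 0.808 RPKM and Cntn2 at 1.54 ± 0.320 RPKM were then each separate from the genes above and below, and Gjb1 (0.349 ± 0.0923) and Ermn (0.205 ± 0.118) overlapped at the bottom.

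Among the paranodal genes, the transcript of the axonal partner Cntnap1 rose, and those of Nfasc and Cntn1 leaned in opposite directions without passing the call. Cntnap1 (chr11:101170523-101190724, plus strand) was at 0.943, 1.37 and 1.97 RPKM in the siNC libraries and at 4.16, 5.05 and 3.43 RPKM in the siQk libraries. Every siQk library was above every siNC library, on 294 to 3148 tags per library. The fitted change was 2.67-fold (95% interval 1.77 to 4.01; log2 fold change 1.42 ± 0.25, edgeR quasi-likelihood FDR = 0.00656). This call held in all 15 alternative analyses, with values from 1.22 to 1.69.

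Nfasc (chr1:132564690-132741797, minus strand) was at 202, 141 and 109 RPKM in siNC and at 77.4, 76.0 and 122.6 RPKM in siQk. The ranges overlapped through 1 pair of libraries, since siQk replicate 3 lay above siNC replicate 3. Its log2 fold change was -0.88 ± 0.30 (95% interval -1.60 to -0.16) with an edgeR FDR of 0.0587, and it missed the call because its unadjusted P was above 0.01. DESeq2 called it, at -0.89. Without siQk replicate 3 it was -1.15 and called, and without siNC replicate 1 it was -0.56 and not called. The annotation lists 10 transcripts of Nfasc, 6 of them coding, and the deposited values are sums over the gene, so glial and neuronal isoforms were not separated.

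Cntn1 (chr15:92051165-92341967, plus strand) was at 54.0, 75.8 and 75.7 RPKM in siNC and at 112, 122.9 and 77.6 RPKM in siQk. In RPKM the groups did not overlap, but siQk replicate 3 was only just above the highest siNC library. With the scaling factors of the fit applied they did overlap. On that log2 scale siQk replicate 3 (9.66) lay below siNC replicates 2 (9.75) and 3 (9.71). Its log2 fold change was 0.46 ± 0.18 (95% interval 0.020 to 0.90) with an edgeR FDR of 0.0914, and its unadjusted P was likewise above 0.01. Without siQk replicate 3 the value was 0.63 and was called.

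Since Cntn1 and Cntnap1 act as a pair, the ratio of their levels within a library was compared, as 1 of 4 such ratios. There were 57.2, 55.3 and 38.5 RPKM of Cntn1 for each RPKM of Cntnap1 in the siNC libraries and 26.9, 24.4 and 22.6 in the siQk libraries. The groups did not overlap, and Cntnap1 relative to Cntn1 was 2.02-fold higher in siQk (two-sided exact permutation test, p = 0.1, which is the lowest reachable value, and 0.4 after adjustment over the 4 ratios). The log2 ratio of Nfasc to Cntn1 was 1.90, 0.90 and 0.53 in siNC and -0.53, -0.69 and 0.66 in siQk, a difference of -1.30 (exact permutation p = 0.2, adjusted 0.4). Nfasc was the more abundant of this pair in every siNC library and in siQk replicate 3, and Cntn1 in the other siQk libraries. With 3 libraries per group neither ratio could pass 0.05.

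**Figure D3:**
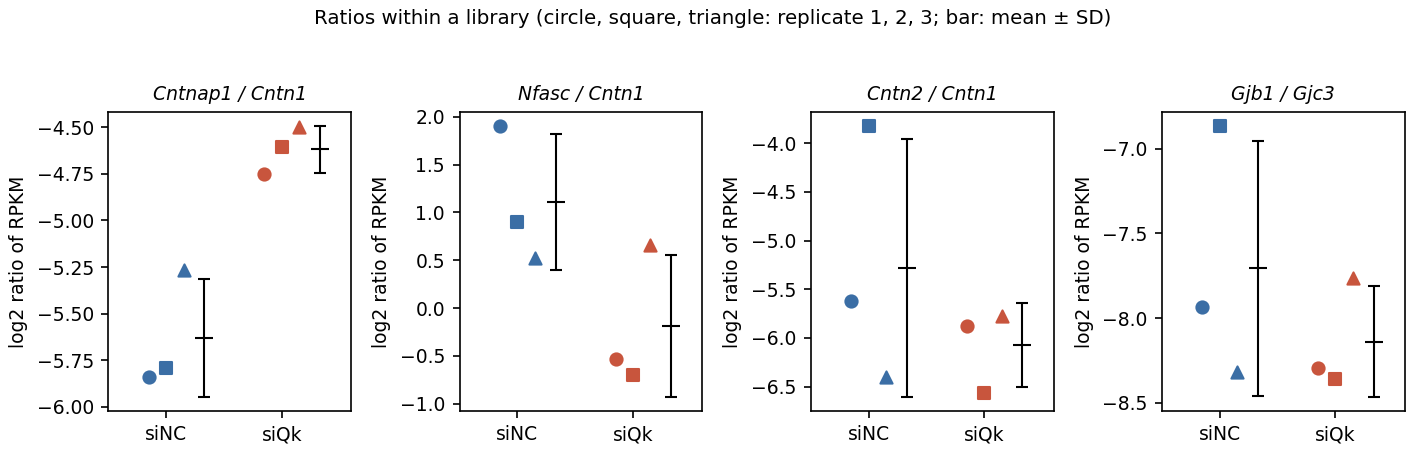
Log2 ratio of 2 genes' RPKM within each library (y axis) in siNC (blue) and siQk (red) for 4 pairs, with the mean ± SD of each group as a bar. The groups are separate for Cntnap1 over Cntn1 (means -5.63 and -4.62) and overlap for the other 3 pairs.

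Cntn1 and Cntnap1 are also transcribed in neurons, so a list of 10 neuron markers was read beside them. Its summed level was 154 to 227 RPKM in siNC and 137 to 184 RPKM in siQk. Tubb3 and Elavl3, the most abundant of the list, leaned lower (log2 fold change -0.57 and -0.61) without a call. The median log2 fold change of the 9 tested was 0.83, beside 0.010 for all genes tested. Of the 9 tested, 3 were called higher and none lower, beside 31.0% of all genes called, 13.8% as higher. With library size as the only scaling 6 were called higher, but calls as higher over all 12505 genes then also rose, from 1730 to 2989. Without siNC replicate 2 the count was 6, beside 28.6% of all genes called in either direction. Snap25 and Nefl were among those called higher. Tubb3 ranged from 97.6 to 166 RPKM in siNC and from 68.4 to 104 RPKM in siQk without a call, and no library held more than 0.0439 RPKM of the neuronal Stmn2. The part of these neuronal genes in the Cntnap1 result was not tested.

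The contactin, Caspr and L1 family, which includes these 3 contact genes and Cntn2, showed 2 genes called higher and 1 lower of 11 tested. This share of 27.3% was close to the 31.0% of all genes tested. The median log2 fold change of the list was -0.066. With library size as the only scaling this median was 0.083, with the all-gene median at 0.16. Relative to the all-gene median the list's median was -0.076 in the first fit and -0.077 in the second, and without siNC replicate 2 the list's median was 0.42. Its 3 calls became 1 without siQk replicate 1. Besides Cntnap1 the calls were L1cam, an axonal adhesion molecule, at 0.663 ± 0.17 RPKM in siNC and 1.63 ± 0.57 in siQk (log2 fold change 1.15, edgeR FDR = 0.0247), and Cntn6, a neuronal contactin; both were named after their values were seen. Cntn6 was at 0.500, 3.23 and 1.005 RPKM in siNC and at 0.404, 0.257 and 0.265 RPKM in siQk, a log2 fold change of -2.49 (edgeR FDR = 0.0257). Without siNC replicate 2, its highest library, it was -1.44 and still called, while it lost the call without any 1 of the siQk libraries (-2.74 to -2.37). L1cam lost the call without siNC replicate 1 or 3 or siQk replicate 1 or 3 (0.86 to 1.15). Nrcam and Chl1, L1 family members with far higher levels, were not called, at 26.4 against 27.99 RPKM and 49.6 against 44.4 RPKM.

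Among 28 tested genes for the scaffold and matrix of the paranode and node, 3 were called higher and 8 lower. This share was 39.3%, beside 31.0% of all genes tested, and the list's median log2 fold change was -0.33. With library size as the only scaling the counts were 6 higher and 7 lower, and without siQk replicate 1 they were 2 and 5. Lgi4, a secreted ligand of ADAM receptors that glia need for myelination in peripheral nerve, was at 5.57, 8.61 and 6.003 RPKM in siNC and 0.966, 0.973 and 0.877 RPKM in siQk, a log2 fold change of -2.99 (edgeR FDR = 0.00037). Its relative Lgi3 went from 66.4 ± 8.2 to 37.2 ± 12 RPKM (-0.99), a call lost without siNC replicate 1 (-0.86), siNC replicate 2 (-0.98) or siQk replicate 1 (-0.99). Ank2, an ankyrin, fell by 0.64 on the log2 scale, and Epb4.1l3, which encodes the band 4.1 protein that anchors Cntnap1 at the paranode, was at 0.61 and was not called, although it was without siNC replicate 2 (0.77).

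Of 16 genes for adhesion along the internode, 9 were called, 6 lower and 3 higher, with a median of -0.33. This share was 56.3%, beside 31.0% of all genes tested. Mag and Opalin on this list are also among the myelinating oligodendrocyte markers given above. Mag, the myelin sialic acid-binding protein that faces the axon, was at 174, 158 and 55.6 RPKM in siNC and 16.8, 15.7 and 40.0 RPKM in siQk. All siNC libraries lay above all siQk libraries, and the log2 fold change was -2.58 ± 0.56, which lost its call without siQk replicate 1 (-2.37) or siQk replicate 2 (-2.34). Cadm2 (53.2 against 20.8 RPKM, -1.51), an adhesion molecule of the nectin-like family, and Opalin (126 against 59.6 RPKM, -1.24), an oligodendrocyte membrane glycoprotein, fell as well, but Opalin kept its call only without siNC replicate 2 among the 6 fits that left out 1 library (-1.44 to -0.84 in the other 5). Cadm4, the main glial partner of axonal nectin-like proteins in the internode, fell by 0.72 on the log2 scale.

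Cntn2 (chr1:132509427-132543256, minus strand), the juxtaparanodal contactin, showed no call, and its value rested on 1 library. It was at 1.10, 5.37 and 0.892 RPKM in siNC and at 1.90, 1.30 and 1.42 RPKM in siQk. In RPKM, siNC replicate 2 lay above all siQk libraries and the other siNC libraries below them. With the scaling factors of the fit applied, siNC replicate 1 (3.588 on the log2 scale) was level with siQk replicate 2 (3.583). The log2 fold change was -0.82 ± 0.66 (95% interval -2.39 to 0.76; edgeR FDR = 0.362). Without siNC replicate 2 it turned to 0.46 (edgeR FDR = 0.148), and the remaining siNC values of 0.892 to 1.10 RPKM then lay below the siQk range of 1.30 to 1.90 RPKM. The ratio of Cntn2 to Cntn1 differed by -0.79 on the log2 scale between the groups (exact permutation p = 0.4, adjusted 0.533).

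Of the 2 connexins among the 8 genes, Gjc3 fell and Gjb1 was not called. Gjc3 (chr5:137953461-137963098, minus strand) was at 177, 137 and 134 RPKM in siNC and at 89.2, 100.9 and 98.6 RPKM in siQk. The groups did not overlap, and the siQk libraries lay within a narrow band, with an SD of 6.24 RPKM against 24.2 in siNC. The change was 0.577-fold (95% interval 0.451 to 0.738, log2 fold change -0.79 ± 0.15, edgeR FDR = 0.00836). It was called in all 15 alternatives with the same cutoffs, from -0.89 to -0.61. Gjc3 was not called at the stricter cutoff that asks for a log2 fold change of at least 1.

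Gjb1 (chrX:101376378-101385629, plus strand) lay just under the filter on low counts, with an average of -0.227 log2 CPM (counts scaled to the library total), and its values come from the fit without that filter. It was at 0.724, 1.18 and 0.420 RPKM in siNC and at 0.284, 0.307 and 0.454 RPKM in siQk, from 63, 195 and 83 tags and from 60, 38 and 86 tags. The lowest siNC library lay below the highest siQk library. At these depths counting error alone is wide, since the 38 tags of siQk replicate 2 have a 95% Poisson interval of 26.9 to 52.2 tags, which covers counting error only. The log2 fold change was -1.27 ± 0.40 (95% interval -2.18 to -0.36) with an edgeR FDR of 0.0491, and its unadjusted P was just above 0.01, so it was not called; DESeq2 called it, at -1.29. Without siNC replicate 2, the highest of its siNC libraries, the value was -0.83.

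Gjc3 was far above Gjb1 in both groups, with 244.7, 116.5 and 318.5 RPKM for each RPKM of Gjb1 in siNC and 313.6, 328.6 and 217.0 in siQk. The log2 ratio of Gjb1 to Gjc3 differed by -0.43 between the groups (exact permutation p = 0.6, adjusted 0.6), and this difference was 0.24 when 1 was added to each RPKM. The astrocytic connexins Gja1 and Gjb6 did not exceed 0.0130 RPKM in any library. Of 8 tested astrocyte markers, 5, Gfap among them, were called lower, beside 17.2% of all genes tested. Panx1, a pannexin channel gene, averaged 51.2 ± 9.4 RPKM in siNC against 43.7 ± 2.6 RPKM in siQk and was not called.

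Start-site sequences were available for 6 of the 8 genes, without Cntnap1 and Jam3, as RefSeq windows (GRCm38.p6) of 250 bases before and 50 after a start. They were searched on both strands for ACAAAG and ACAATG, 6-letter cores that SOX proteins such as Sox10 can recognise, and for the E-box CAGCTG, with no overlap between matches; 18.7%, 12.6% and 16.3% of 32851 mouse windows held them. Sox10 transcript itself was at 141 to 174 RPKM in siNC and 168 to 184 RPKM in siQk and was not called. For the 3 genes with a 3′UTR match 1 window each is shown, with matches in capitals. For Gjb1 this window is the most downstream of 4 and held the most matches. That of Gjc3 held none of the motifs, that of Ermn held 1 ACAATG, and the Gjb1 window shown held ACAAAG and, 4 bases on, ACAATG read from the other strand (CATTGT). The most upstream Gjb1 window also held 1 ACAAAG, 1 Cntn1 window held 1 ACAATG and 1 Nfasc window held 1 CAGCTG, and the other windows of these genes and that of Cntn2 held none. No factor was measured at these windows.
Gjc3, chr5:137963049-137963348, minus strand: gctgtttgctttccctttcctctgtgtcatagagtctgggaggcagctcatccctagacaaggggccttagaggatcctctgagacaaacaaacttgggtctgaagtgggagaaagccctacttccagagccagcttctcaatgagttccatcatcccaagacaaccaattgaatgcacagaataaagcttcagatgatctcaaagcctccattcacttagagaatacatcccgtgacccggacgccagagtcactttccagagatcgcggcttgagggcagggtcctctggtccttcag
Gjb1, chrX:101383482-101383781, plus strand: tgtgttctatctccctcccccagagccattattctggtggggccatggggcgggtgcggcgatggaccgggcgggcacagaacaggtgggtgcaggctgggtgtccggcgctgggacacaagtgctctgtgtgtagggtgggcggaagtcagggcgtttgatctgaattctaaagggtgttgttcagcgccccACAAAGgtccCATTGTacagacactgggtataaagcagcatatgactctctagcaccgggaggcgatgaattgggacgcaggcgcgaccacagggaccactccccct
Ermn, chr2:58052815-58053114, minus strand: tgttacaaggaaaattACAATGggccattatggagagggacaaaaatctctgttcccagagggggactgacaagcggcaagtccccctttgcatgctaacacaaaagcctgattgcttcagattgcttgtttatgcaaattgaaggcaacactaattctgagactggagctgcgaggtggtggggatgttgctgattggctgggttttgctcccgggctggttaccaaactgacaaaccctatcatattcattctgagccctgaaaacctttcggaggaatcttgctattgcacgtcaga

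Jam3 was not called, and its interval was the narrowest of the 8 genes. Jam3 (chr9:27097384-27155421, minus strand) was at 124, 144 and 125 RPKM in siNC and at 141, 174 and 135 RPKM in siQk. The ranges overlapped, and the log2 fold change was 0.039 ± 0.11 (edgeR FDR = 0.799) with a 95% interval of 0.857- to 1.23-fold. Its sign changed when siNC replicate 3 or siQk replicate 2 was left out. Of its exon bases in GENCODE M21, 36.2% lie opposite the antisense gene Gm48796. The library kit does not mark strand, so reads of the 2 genes cannot be told apart there. The deposited Jam3 values rest on 1767 nt of exon, and how much of that length overlaps was not determined. Smaller shares of the exon bases of Cntnap1 (3.97%) and Ermn (6.52%) likewise lie opposite Plekhh3 and Galnt5.

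Around Jam3, 16 JAM family and tight junction genes were tested, of which 2 were called higher and 5 lower. This share was 43.8%, beside 31.0% of all genes tested. The median log2 fold change of the list was 0.034, and it ran from -0.063 to 0.11 with 1 library left out. The close relative Jam2 fell from 30.2 ± 3.2 to 21.01 ± 0.98 RPKM, a log2 fold change of -0.68. Cldn11, the claudin of the tight junctions between myelin layers, was at 1100.6, 737 and 834 RPKM in siNC and at 377, 366 and 424 RPKM in siQk, with no overlap and a log2 fold change of -1.35 (edgeR FDR = 0.00295). Cxadr, an adhesion receptor of the same superfamily as Jam3, rose from 1.93 ± 0.65 to 5.06 ± 1.0 RPKM (1.24).

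Ermn (chr2:58045113-58052864, minus strand) was at or below 0.341 RPKM in 5 of the 6 libraries. It was at 0.293, 3.61 and 0.151 RPKM in siNC and at 0.143, 0.130 and 0.341 RPKM in siQk, from 60, 1410 and 70 tags and from 71, 38 and 152 tags. siNC replicate 2 held 24.0 times the level of siNC replicate 3, and the other siNC libraries lay inside the siQk range. Only 0.008% of genes tested had a larger SD of log2 CPM among the siNC libraries than Ermn, and 0.168% a larger one than Cntn2. The log2 fold change of Ermn was -2.85 ± 1.19 (95% interval -5.68 to -0.018; edgeR FDR = 0.101), and without siNC replicate 2 it was -0.21 (FDR = 0.793, with no filter on low counts, since Ermn is then under it).

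siNC replicate 2 was also the highest of the 6 libraries for Gjb1 and the myelin genes Mobp and Mal, which were picked out after their values were seen. Mobp was at 5.12, 25.2 and 1.61 RPKM in siNC and at 0.431, 0.146 and 0.859 RPKM in siQk. Mal was at 1.34, 2.43 and 0.403 RPKM in siNC and at 0.048, 0.017 and 0.0996 RPKM in siQk. The order was not shared by the whole list, since siNC replicate 2 did not have the highest sum of the myelinating markers. The microglial gene P2ry12 was highest in that library too, at 3.20 RPKM against 0.669 and 1.19 in the other siNC libraries, while 6 of the 8 microglia markers exceeded 0.1 RPKM in no library and C1qa was at 0. The part of these genes in the Ermn and Cntn2 values was not tested.

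**Figure D4:**
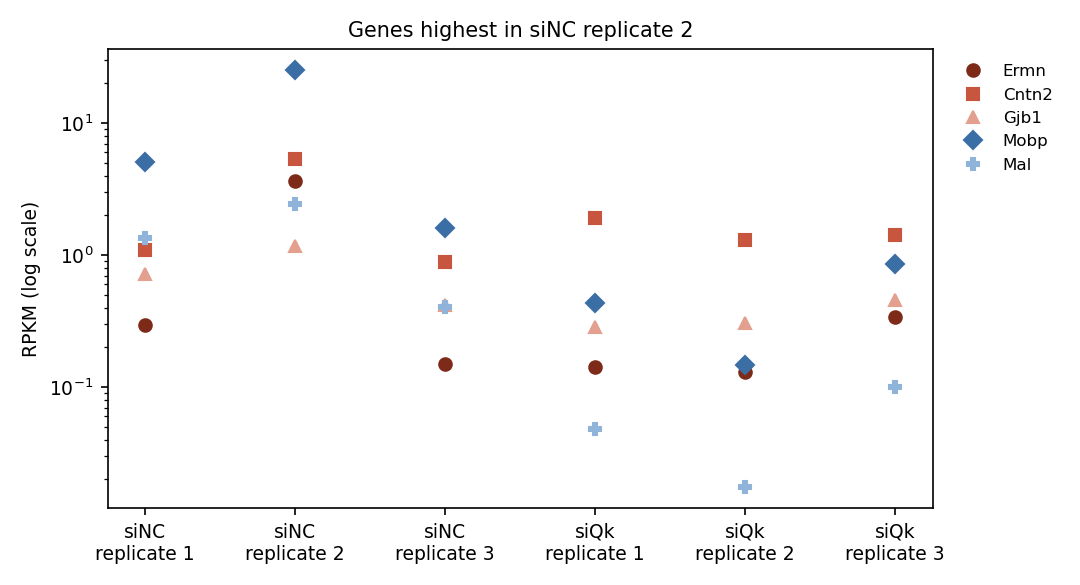
RPKM (y axis, log scale) of Ermn, Cntn2, Gjb1, Mobp and Mal in each of the 6 libraries (x axis), 1 point per gene and library. All 5 genes peak in siNC replicate 2, with Ermn at 3.61 and Mobp at 25.2 RPKM, and Cntn2 alone is lowest in siNC replicate 3 (0.892 RPKM) rather than in a siQk library.

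Of 21 tested genes for the ERM proteins and the membrane cytoskeleton around ermin, 16 were called (76.2%), 14 of them lower. Among all genes tested 31.0% were called, 17.2% as lower. The median log2 fold change of the list was -0.50, and Ermn, itself on the list, was not called. Ezr, which encodes ezrin, fell from 30.5 ± 9.9 to 7.58 ± 1.2 RPKM (-2.15, edgeR FDR = 0.00116). Tppp, a microtubule-binding protein of oligodendrocytes, was at 145, 104 and 54.6 RPKM in siNC and 8.66, 9.60 and 12.9 RPKM in siQk, a separation with a log2 fold change of -3.46. Sept4, a septin of the myelin scaffold, fell from 48.4 ± 23 to 9.59 ± 5.6 RPKM (-2.49), and lost its call without siQk replicate 1 (-2.25) or siQk replicate 2 (-2.29). Epb4.1, a band 4.1 protein that ties spectrin and actin to the membrane, went the other way, from 13.2 ± 2.7 to 37.9 ± 3.4 RPKM (1.37).

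Whether the value of a gene rests on 1 library was read from fits that left out each library in turn. Cntnap1 and Gjc3 kept their direction and call in all 6 of these fits. Nfasc, Cntn1, Gjb1 and Ermn kept their direction and Cntn2 and Jam3 did not.

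**Figure D5:**
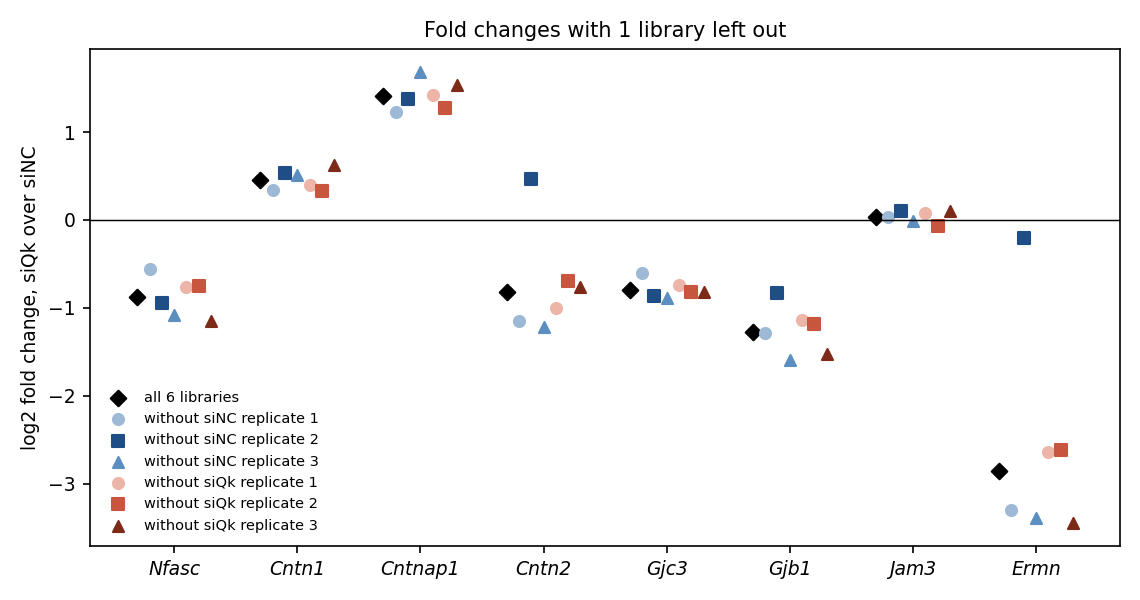
Log2 fold change of siQk over siNC (y axis) of each gene with all 6 libraries (black diamond) and with each library left out in turn, coloured by group and shaped by replicate. Cntnap1 (1.22 to 1.69) and Gjc3 (-0.89 to -0.61) stay on their side of 0, whereas Cntn2 crosses to 0.46 and Ermn moves to -0.21 without siNC replicate 2.

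The genes whose levels ran most nearly in parallel with each of the 7 tested genes were sought among the more abundant genes, by Pearson's r of log2 CPM over the 6 libraries. These values describe 6 points that share their group and depth. Nfasc was most like Elavl3 (0.994) and Mrpl43 (0.993), Cntn1 like Zfyve19 (0.993) and Gtf3c5 (0.992), and Cntnap1 like Tsnax (0.999) and Dbn1 (0.999). Gjc3 was most like Trappc2l (0.999) and Smox (0.997), Jam3 like Phgdh (0.980) and Efnb1 (0.967), Cntn2 like Tanc1 (0.998) and Anln (0.987), and Ermn like 1110018G07Rik (0.983) and Bicd2 (0.981).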

How the data were processed

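Libraries were made from total RNA of cultured mOPCs with the TruSeq RNA Sample Prep Kit v2 after poly-A selection and read as paired ends. Alignment by the authors used OLego with mm10, and gene levels came from Quantas (versions and annotation not given in the sources used here). The deposited files hold, per gene, an estimated count (tag number, fractional for 23.1 to 26.2% of genes) and an RPKM, which is that count divided by exon length and library total and carries no further scaling.

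Tag numbers were rounded and fitted with edgeR 4.0.16 (R 4.3.3): average log2 CPM over 0, TMM factors (0.899 to 0.987 in siNC, 1.04 to 1.07 in siQk), quasi-likelihood test, group as the only term, 3 against 3 libraries. SE is the absolute log2 fold change over the square root of F. Since RPKM carry no TMM factor, fitted folds are lower than ratios of mean RPKM. The test was also run on counts simulated with the same spread for all genes and with few changed genes. Those settings are simpler than these data, so that run does not vouch for the calls made here. Replicate libraries differed beyond sampling noise. Whether a number marks paired cultures is not given in the sources used here.

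The 8 genes and the lists around them were chosen with earlier results of these data known. The lists share genes with the marker lists, so their counts are not independent. Mag, Opalin, Ugt8a and Cldn11 are also myelinating oligodendrocyte markers. Named genes were the 8, Qk, the 3 abundant called genes of largest change in each list, connexins called or over 1 RPKM, and the 2 most alike genes per member. Some genes that this rule names are not reported here. Older symbols were matched by Entrez ID. Microglia, fibroblast and vascular, and Schwann cell markers were also read; fibroblast and vascular markers summed to 2.51 to 5.12 RPKM in siNC and 3.93 to 5.07 in siQk, and Schwann cell markers to 9.48 to 18.3 and 7.63 to 9.13. Alternatives were DESeq2 1.42.0, the edgeR exact and likelihood ratio tests, 3 other scalings, 2 other filters, a stricter cutoff, a replicate block and leaving out each library.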

Additional observations from a re-analysis of the deposited data

How the results depend on the processing

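Qk, Cntnap1 and Gjc3 kept their direction and call in all 15 alternatives run for each at the same cutoffs. Ermn was called in none of those run for it. The count of changed genes ran from 2478 to 3704 with 1 library left out, 19.8% to 29.7% of those tested. The members changed in these fits numbered 2 to 4, or 28.6% to 57.1% of those tested. At FDR below 0.05 with a log2 fold change of at least 1, a stricter cutoff by construction, 946 of 12505 genes and 1 of 7 members changed. That member was Cntnap1, and Gjc3 (-0.79) fell short of this fold change. With 1 library left out, Nfasc ranged from -1.15 to -0.56 (called without siNC replicate 3 or siQk replicate 3), Cntn1 from 0.33 to 0.63, Cntn2 from -1.22 to 0.46, Gjb1 from -1.60 to -0.83 (called without siNC replicate 3) and Jam3 from -0.070 to 0.10, with Jam3 at -0.016 without siNC replicate 3. Nfasc and Gjb1 were called by 3 other tests at nearly the same value, at -0.89 and -1.29 by DESeq2, -0.88 and -1.27 by the edgeR exact test, and -0.88 and -1.27 by the likelihood ratio test; the cause was not tested. The Gjb1 to Gjc3 difference reversed to 0.24 with 1 added to each RPKM. Leaving siNC replicate 2 out of the fit with no filter, fitting Gjb1 without the filter throughout, and leaving single libraries out for the lists, were chosen after seeing the data.

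Libraries with the same number did not deviate together (correlations of -0.0528, -0.152 and -0.340), so the numbers were not taken as pairs. In the fit that took this number as a block, 2796 genes changed, Cntnap1 (1.45) and Gjc3 (-0.77) were called, and Ermn was at -1.59. The lowest tag number of Gjb1 and of Ermn in a library was 38.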
